A study of Mus musculus with 6 samples.

Results

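The 33 genes described here encode the enzymes of the tricarboxylic acid (TCA) cycle and of the steps that bring pyruvate and amino acid carbon into it, in CD8+ T cells of the mouse spleen. They were chosen by name from the pathway, and all 33 were found among the 54446 genes of the deposited files, 32 under their own symbol and pyruvate carboxylase (*Pc*) under its older symbol *Pcx*. RNA-Seq libraries came from 3 groups of 2, all from C57BL/6 mice that were 8 weeks old, and from cells isolated by negative selection, in which other cell types are removed with antibodies. The Unstimulated libraries came from fresh cells, the Control libraries from cells stimulated for 72 h with anti-CD3 and anti-CD28 antibodies without magnets, and the SMF libraries from cells stimulated in the same way on permanent magnets that gave a static magnetic field of 0.3 T. No library was made from cells in the field without stimulation, nor from cells on a metal block without magnetism.

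Pyruvate made by glycolysis enters the mitochondrion through a carrier of 2 proteins and is turned into acetyl-CoA by the pyruvate dehydrogenase complex, which kinases switch off and phosphatases switch on. The cycle joins acetyl-CoA to oxaloacetate as citrate, releases carbon dioxide in 2 oxidative steps, and passes electrons to the respiratory chain. Activated T cells are known for fast glycolysis with lactate release, while the cycle also supplies citrate and aspartate for growth. Abundance is given as gene FPKM, fragments scaled to transcript length and library size, so levels of different genes can be compared with each other.

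The labels were checked on marker genes. The 6 CD8 T cell markers (*Cd3e*, *Cd3d*, *Cd3g*, *Cd8a*, *Cd8b1* and *Trac*) were above 0 in all 6 libraries, and the activation genes *Il2ra*, *Gzmb*, *Mki67* and *Myc* summed to between 32.5 and 36.7 FPKM in the Unstimulated libraries and between 1616 and 4519 FPKM in the stimulated ones. The 4 B cell markers summed to 102.6 to 142 FPKM in the Unstimulated libraries and to 2.43 to 23.3 in the stimulated ones, where *Ms4a1* was at most 0.864 FPKM. The 4 myeloid markers summed to 116 to 141 FPKM in the Unstimulated libraries, 47.0 to 53.8 in Control and 41.1 to 50.5 in SMF; *Lyz2* was listed at 0 in the 4 stimulated libraries and *Csf1r* made up nearly all of the sum there. *Cd4*, the NK cell marker *Ncr1* and the 3 erythroid markers summed to less than 20 FPKM each in all 6 libraries. Control replicate 1 had the fewest covered bases (64.4 Mb) and SMF replicate 1 the most (259 Mb), and the SMF libraries held 68.7% to 69.2% of their FPKM in protein-coding genes against 49.1% to 50.5% in the other 4. The file headers carry a date for each library: 1 date is shared by Unstimulated and Control replicate 1, another by Unstimulated and Control replicate 2, and the third by both SMF libraries. No date held both SMF and Control libraries, so the field and whatever went with the date cannot be told apart.

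The members as a whole stood highest in the SMF libraries. Their summed FPKM was 307 and 371 in Unstimulated, 484 and 599.8 in Control, and 1041 and 1054 in SMF, so the 3 groups did not overlap. The 11 cycle enzymes of the mitochondrion had sums of 144 and 166, 207 and 267, and 523 and 559.9 FPKM. Of the 33 members, 31 had a mean of at least 1 FPKM and were tested, and *Pdk2* and *Pc* fell below it; 26 were above 0 in every library. The most abundant member by mean was *Pdhb* in Unstimulated (34.0 FPKM) and *Mdh2* in both Control (56.9 FPKM) and SMF (135 FPKM).

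**Figure D1:**
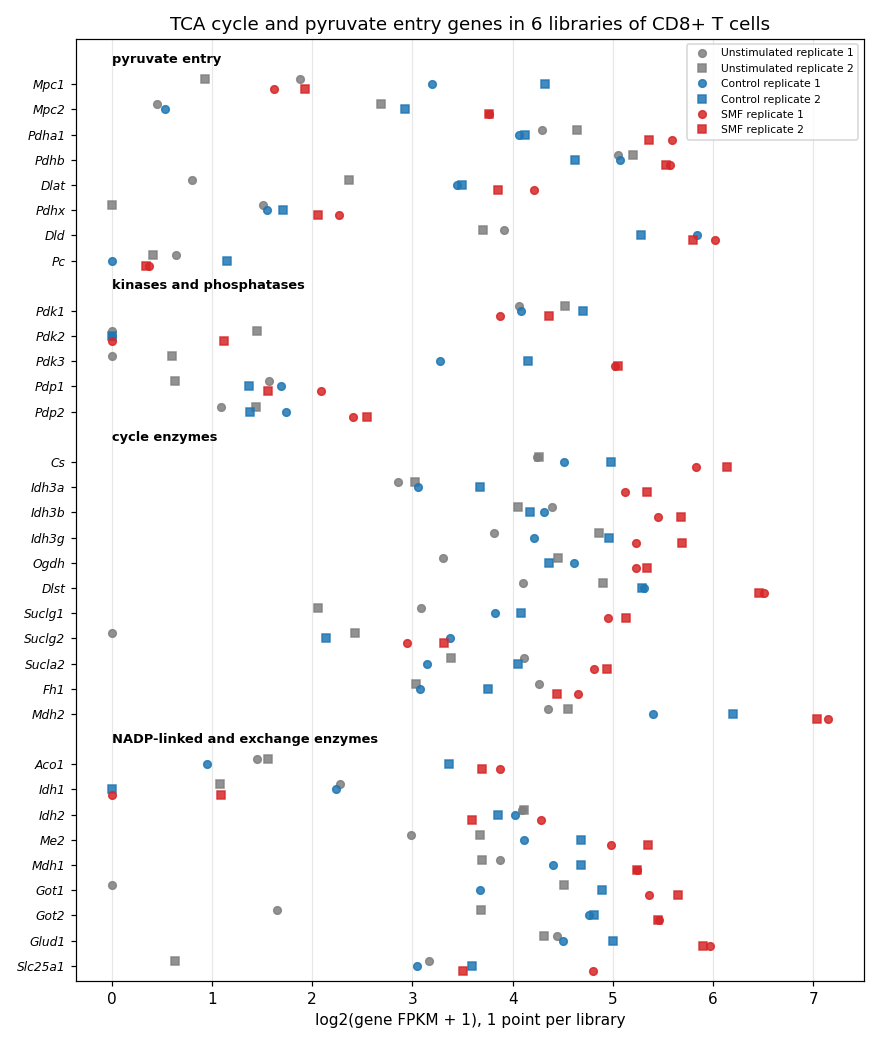
Abundance of the 33 members in each of the 6 libraries, as log2(gene FPKM + 1) on the horizontal axis, grouped by role; circles are replicate 1 and squares replicate 2. The SMF points lie to the right of both Unstimulated points for 26 of the 31 tested members and to the right of both Control points for 23, while *Mpc1* has its 2 Control points to the right of all others.

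Stimulation without magnets went with higher abundance of part of the pathway. In Control against Unstimulated, 8 of the 31 tested members rose and none fell, where a gene was called at a fold of at least 2 on the FPKM + 1 scale and an unadjusted limma p of at most 0.05; over all 14991 genes tested, 12.3% were called higher and 12.6% lower. These 8 were also the only members with an unadjusted p under 0.05. The share of members called higher was 25.8%, and 2 of them, *Pdk3* and *Dld*, had a Benjamini-Hochberg adjusted p under 0.05. Of all genes, 4.48% were higher and 3.95% lower with both a fold of at least 2 and such an adjusted p. The median log2 difference was 0.61 over the members and -0.05 over all genes tested, and 25 members had a difference above 0 (48.5% of all genes). Both Control libraries lay above both Unstimulated libraries for 14 members (24.8% of all genes) and below them for 2 (26.6% of all genes). Without Control replicate 2 the median log2 difference was 0.58 over the members and -0.10 over all genes. Of the 8, *Mdh2* and *Me2* then fell under a fold of 2 (0.94 and 0.78), and the rest stayed above it. In a fit of these 2 groups alone 4 of the 31 members were called higher, beside 1511 of the 14991 genes tested. The B cell and myeloid markers were lower in the stimulated libraries. The 6 CD8 T cell markers summed to 658 and 784 FPKM in Unstimulated and to 349 and 566 in Control. Of these, *Cd8a* and *Cd8b1* fell in Control against Unstimulated (-1.08 and -1.31) and none rose. The part of all these markers in the members' values was not tested. In these bulk libraries fewer cells of a type and less RNA per cell cannot be told apart.

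Cells stimulated in the field had more members above the Unstimulated level. In SMF against Unstimulated, 18 of 31 members rose and none fell, against 22.4% of all genes called higher and 14.8% called lower. All 18 members with an unadjusted limma p under 0.05 were higher. The adjusted p was under 0.05 for 13 of them. With both a fold of at least 2 and such an adjusted p, 14.1% of all genes were higher and 9.25% lower. The median log2 difference was 1.56 over the members and 0.27 over all genes. Both SMF libraries lay above both Unstimulated libraries for 26 members, as for 39.7% of all genes, and 28 had a difference above 0 (56.8% of all genes). With each library scaled to an equal protein-coding FPKM total, 11 members were called higher, beside 2347 of the 14991 genes tested. The 3 comparisons share libraries and are not independent of each other.

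SMF against Control sets stimulated cells with and without magnets side by side, on different header dates. Here 9 of 31 members rose (*Cs*, *Idh3a*, *Idh3b*, *Dlst*, *Sucla2*, *Mdh2*, *Pdha1*, *Pdk3* and *Glud1*) and 1 fell (*Mpc1*), against 12.5% of all genes called higher and 5.72% called lower. No member had an adjusted p under 0.05 in limma, while 10 had an unadjusted p under 0.05. With both a fold of at least 2 and an adjusted p under 0.05, 3 of all genes were higher (0.02%) and 1 lower (0.00667%). The median log2 difference was 0.87 over the members and 0.32 over all genes tested. For 23 members the 2 SMF values were higher than both Control values (37.4% of all genes), and for 1 they were lower (17.4% of all genes); 27 members had a difference above 0 (60.2% of all genes). *Idh3b* is one of the genes the study itself picked from these libraries, so its rise is no independent evidence. The study then measured its picked genes by real-time PCR, and named *Uqcrb* and *Ndufs6* but not *Idh3b* as significantly upregulated. Without *Idh3b*, 8 of 30 members rose. The count depended on the scaling of the libraries: with the libraries shifted to one median, or scaled to an equal protein-coding FPKM total, 2 members rose (*Idh3a* and *Pdha1*) and *Mpc1* still fell. Over all genes the split moved from 1868 higher and 857 lower to 877 higher and 1441 lower after the shift to one median, and the median of all genes from 0.32 to -0.02. With the equal protein-coding FPKM total, 931 of all genes were called higher and 1307 lower. Without Control replicate 1, *Sucla2*, *Mdh2*, *Pdk3* and *Glud1* fell under a fold of 2 (0.83, 0.89, 0.88 and 0.93). The rest of the 9 stayed above it, and the median of all genes was 0.26. Without SMF replicate 1 all 9 stayed above a fold of 2, with a median of all genes of 0.31. The marker genes also differed between these groups: the 6 CD8 T cell markers summed to 349 and 566 FPKM in Control and to 950.03 and 854 in SMF. Of the 6, *Cd8a*, *Cd3d* and *Trac* rose in SMF against Control (2.01, 1.40 and 1.10) and none fell, while of the 4 B cell markers *Cd79a* fell by 1.78. Their part in the members' values was not tested.

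**Figure D2:**
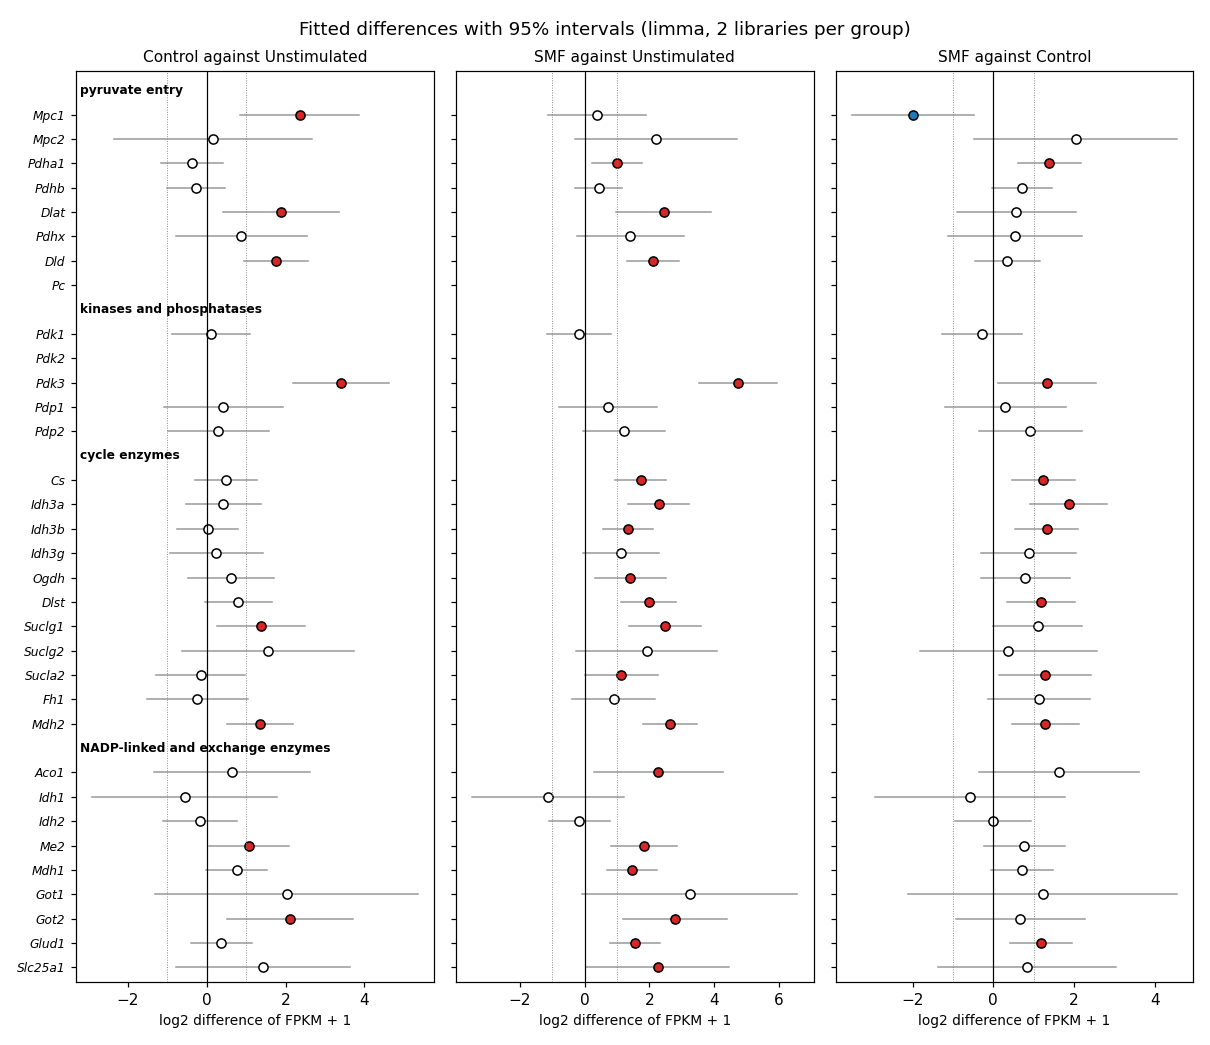
Fitted log2 differences of FPKM + 1 (points) with their 95% intervals (lines) for the 31 tested members in the 3 comparisons; red points were called higher, blue points lower, and white points were not called, with dotted lines at a fold of 2. In SMF against Control all 11 cycle enzymes lie above 0, and *Mpc1* at -1.99 is the only member called lower.

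The entry of pyruvate begins with a carrier of 2 subunits, *Mpc1* and *Mpc2*, which work as a complex. *Mpc1* was called in 2 of the 3 comparisons and *Mpc2* in none, and the difference between them was not tested. *Mpc1* (chromosome 17, 8282904 to 8297661, plus strand, GRCm38) stood at 2.69 and 0.905 FPKM in Unstimulated, 8.19 and 19.01 in Control, and 2.07 and 2.81 in SMF. The 2 Control libraries were thus the high ones, and the SMF values overlapped the Unstimulated values. *Mpc1* rose in Control against Unstimulated by 2.36 on the log2 scale (SE 0.62, limma adjusted p = 0.0711), with 1.32 and 3.39 within the 2 header dates, and was not called without Unstimulated replicate 2 (1.88) or Control replicate 2 (1.79). In SMF against Control it fell by 1.99 (SE 0.62, limma adjusted p = 0.179). This fall passed the thresholds in 13 of 16 alternatives, and not without SMF replicate 1 (-1.83), SMF replicate 2 (-2.14) or Control replicate 2 (-1.43). *Mpc2* stood at 0.367 and 5.44 FPKM in Unstimulated, 0.445 and 6.58 in Control, and 12.6 and 12.5 in SMF. Its SMF libraries were above the other 4, but the gap between replicates left it uncalled in all 3 comparisons (SMF against Control 2.04, 95% interval -0.47 to 4.54). The ratio of *Mpc1* to *Mpc2* by gene FPKM was 7.32 and 0.166 in Unstimulated, 18.4 and 2.89 in Control, and 0.164 and 0.224 in SMF. By this ratio *Mpc1* led in both Control libraries and *Mpc2* in both SMF libraries. The *Mpc2* values behind 7.32 and 18.4 lay wholly on a retained-intron transcript of 4015 bases. On protein-coding transcripts *Mpc2* was listed at 0 in both Unstimulated libraries and Control replicate 1, so no such ratio exists there.

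The reads of *Mpc1* were spread over different annotated transcripts in different libraries. Both Unstimulated libraries had them on a protein-coding transcript of 961 bases, Control replicate 1 on one of 958 bases, and Control replicate 2 on protein-coding transcripts of 924 bases (5.87 FPKM) and 373 bases (6.75 FPKM) and a retained-intron transcript of 670 bases (6.39 FPKM). In SMF, protein-coding transcripts held 25.1% and 24.1% of the gene's FPKM. On protein-coding transcripts alone the fall in SMF against Control was -2.81 (limma adjusted p = 0.194). Of the exon bases of *Mpc1*, 23.1% face exons of *4930506C21Rik* on the opposite strand, and that gene stood at 96.2 and 47.8 FPKM in Unstimulated, 20.8 and 26.4 in Control and 14.1 and 7.73 in SMF; its part in the values of *Mpc1* was not tested.

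The subunits of the pyruvate dehydrogenase complex did not move as one. *Pdha1* and *Pdhb* encode the 2 chains of the decarboxylase (E1), *Dlat* the acetyltransferase (E2), *Dld* the dihydrolipoamide dehydrogenase (E3), and *Pdhx* the protein that binds E3. *Pdha1* stood at 18.6 and 23.9 FPKM in Unstimulated, 15.7 and 16.5 in Control, and 47.3 and 39.95 in SMF. The Control libraries were the lowest and the SMF libraries the highest. In Control against Unstimulated the difference was not called (-0.37, 95% interval -1.15 to 0.40), while *Pdha1* rose in SMF against Control by 1.38 (SE 0.32, limma adjusted p = 0.141) and was called in 16 of 16 alternatives. Its rise in SMF against Unstimulated (1.01, SE 0.32, limma adjusted p = 0.0663) was not called without Unstimulated replicate 1 (0.83) or SMF replicate 1 (0.89). Exons of *Map3k15* on the opposite strand face 16.1% of the exon bases of *Pdha1*, and that gene stood between 116 and 162 FPKM in the 6 libraries. *Pdhb* ranged from 23.7 to 46.6 FPKM and was not called in any comparison.

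*Dlat* stood at 0.738 and 4.17 FPKM in Unstimulated, 9.86 and 10.3 in Control, and 17.6 and 13.4 in SMF. The Unstimulated libraries were lowest and the 3 groups did not overlap. *Dlat* rose in Control against Unstimulated by 1.88 (SE 0.61, limma adjusted p = 0.111) and in SMF against Unstimulated by 2.45 (limma adjusted p = 0.0344). The first rise was not called without Control replicate 1 (1.91) or Control replicate 2 (1.86), nor the second without SMF replicate 1 (2.27). *Pdhx* was listed at 0 in Unstimulated replicate 2, stood at 1.84 in replicate 1, and lay between 1.92 and 3.80 FPKM in the stimulated libraries, without a call. *Pc*, the carboxylase that makes oxaloacetate from pyruvate, was listed at 0 in Control replicate 1, stood between 0.265 and 1.22 FPKM in the other 5 libraries, and was not tested.

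*Dld* gave the smallest p after *Pdk3* among the rises of Control against Unstimulated. Its enzyme is shared by the pyruvate dehydrogenase and 2-oxoglutarate dehydrogenase complexes. *Dld* (chromosome 12, 31331277 to 31351453, minus strand, GRCm38) stood at 14.1 and 12.01 FPKM in Unstimulated, 56.4 and 37.9 in Control, and 63.7 and 54.8 in SMF. Both stimulated groups were above Unstimulated, and they overlapped each other. The rise was 1.76 (SE 0.33, limma adjusted p = 0.0308), with 1.93 and 1.58 within the header dates, and it was 2.10 in SMF against Unstimulated (limma adjusted p = 0.0106).

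Which transcript held the reads differed between Control and SMF. A retained-intron transcript of 661 bases at 31334721 to 31341538 within *Dld* was listed at 0 in both Unstimulated libraries, held 26.4 and 29.8 FPKM in Control, and held 0.567 and 4.24 in SMF. The protein-coding transcript of 2544 bases stood at 6.24 and 10.1 FPKM in Unstimulated, 23.4 and 5.98 in Control, and 59.0 and 47.0 in SMF. Control replicate 2 was thus at the Unstimulated level for the coding transcript, and SMF was above all others. On protein-coding transcripts alone the Control difference was 0.54 and not called, and *Dld* rose in SMF against Control by 2.04 (limma adjusted p = 0.283). Transcript abundances are estimates from reads that can fit several transcripts.

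**Figure D3:**
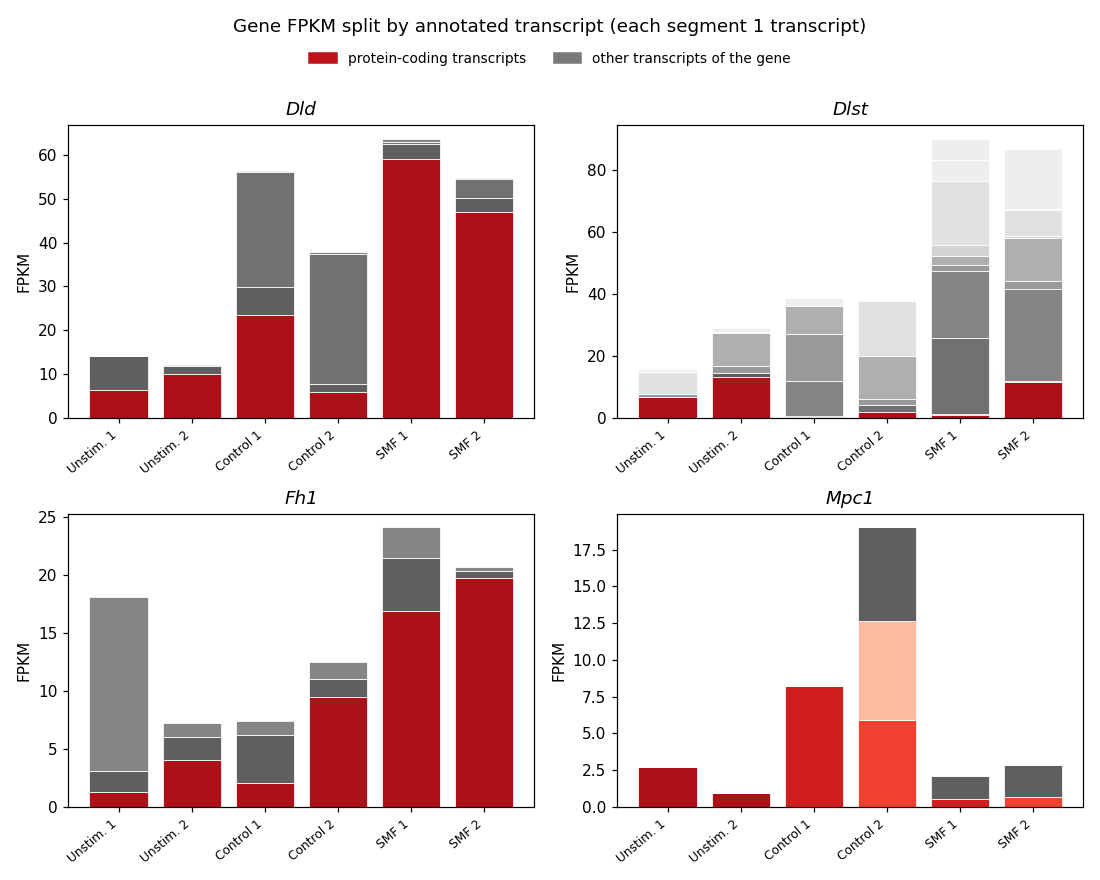
FPKM of *Dld*, *Dlst*, *Fh1* and *Mpc1* in each library, stacked by annotated transcript, with protein-coding transcripts in reds and the others in greys; each segment is 1 transcript. Protein-coding transcripts hold 41.5% and 15.8% of the *Dld* bar in Control and 92.5% and 85.7% in SMF, and at most 13.3% of the *Dlst* bar in the 4 stimulated libraries.

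Promoters are shown for *Pdk3* and *Dld*, the pair with the smallest p among the rises of Control against Unstimulated, and for *Mpc1*, the only member called lower in SMF against Control. The windows run from 250 bases before to 50 bases after the RefSeq start on GRCm38.p6 and are written 5' to 3' along the gene. *Mpc1* was added after its values were seen. They lie at chrX:93832101-93832400 (minus strand), chr12:31351422-31351721 (minus strand) and chr17:8283537-8283836 (plus strand). Capitals mark CCAAT or its reverse complement ATTGG, and CCGGAAG.
Pdk3: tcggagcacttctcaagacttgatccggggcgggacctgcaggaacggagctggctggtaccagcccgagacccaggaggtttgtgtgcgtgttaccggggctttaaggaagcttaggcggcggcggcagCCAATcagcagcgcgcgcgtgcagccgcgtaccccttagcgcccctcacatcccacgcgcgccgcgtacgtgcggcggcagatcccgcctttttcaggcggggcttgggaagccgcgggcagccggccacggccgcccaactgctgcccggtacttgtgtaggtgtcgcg
Dld: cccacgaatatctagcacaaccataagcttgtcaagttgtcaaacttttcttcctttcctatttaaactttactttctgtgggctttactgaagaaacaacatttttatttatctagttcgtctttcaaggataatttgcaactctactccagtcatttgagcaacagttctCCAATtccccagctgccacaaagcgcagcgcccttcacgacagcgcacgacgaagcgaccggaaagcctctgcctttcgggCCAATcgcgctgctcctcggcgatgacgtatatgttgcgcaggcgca
Mpc1: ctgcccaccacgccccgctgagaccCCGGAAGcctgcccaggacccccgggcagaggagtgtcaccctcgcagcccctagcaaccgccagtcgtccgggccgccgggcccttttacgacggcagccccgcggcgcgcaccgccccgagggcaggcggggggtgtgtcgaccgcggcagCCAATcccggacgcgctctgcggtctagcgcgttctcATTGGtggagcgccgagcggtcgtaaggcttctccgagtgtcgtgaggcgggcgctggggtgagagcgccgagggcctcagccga
The *Pdk3* window holds CCAAT at -120, the *Dld* window at -78 and +3, and the printed *Mpc1* window at -72, with ATTGG at -35 and CCGGAAG at -225. *Mpc1* has a second window at chr17:8284204-8284503, around the start of the transcript of 961 bases, and it holds none of the motifs searched. Among 30 members with a window, 25 of 40 windows held CCAAT on either strand (62.5%, in 19 members), against 37.4% of all 32851 windows. CACGTG, which reads the same on both strands, was in 17.5% of the member windows and 7.15% of all, CCGGAAG in 12.5% and 8.86%, AAGGTCA in 5.0% and 4.72%, and the palindromic motif of nuclear respiratory factor 1 in 0.0% and 0.971%. Some members have several overlapping windows. A match is a description of these letters in the window and not a bound site.

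By gene FPKM, the leading kinase was *Pdk1* in Unstimulated and Control and *Pdk3* in SMF. *Pdk1*, *Pdk2* and *Pdk3* encode kinases that switch the complex off. *Pdk3* (X chromosome, 93764607 to 93832201, minus strand, GRCm38) was listed at 0 in Unstimulated replicate 1 and stood at 0.517 FPKM in replicate 2, at 8.67 and 16.8 in Control, and at 31.4 and 32.1 in SMF. The 3 groups did not overlap. *Pdk3* rose in Control against Unstimulated by 3.41 (SE 0.50, limma adjusted p = 0.0178), with 3.27 and 3.55 within the header dates, a 10.6-fold difference on the FPKM + 1 scale, and this call held in 16 of 16 alternatives. In SMF against Unstimulated the rise was 4.73 (limma adjusted p = 0.00436). In SMF against Control it was 1.32 (SE 0.50, limma adjusted p = 0.218), called in 9 of 16 alternatives, and not after either rescaling or without SMF replicate 1 (1.34), SMF replicate 2 (1.31) or Control replicate 1 (0.88).

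*Pdk1* did not pass the thresholds in any comparison. It stood at 15.7 and 22.0 FPKM in Unstimulated, 15.9 and 25.0 in Control, and 13.7 and 19.5 in SMF, with a Control against Unstimulated difference of 0.10 (95% interval -0.89 to 1.09). *Pdk2* was listed at 0 in 4 libraries and stood at 1.72 FPKM in Unstimulated replicate 2 and 1.18 in SMF replicate 2. Of the summed FPKM of the 3 kinases, *Pdk3* held 0% and 2.13% in Unstimulated, 35.3% and 40.1% in Control, and 69.6% and 60.8% in SMF, and *Pdk1* held the greater share in both Unstimulated and Control. This share does not depend on library scaling, but it does on the transcripts counted: on protein-coding transcripts alone *Pdk3* led in Control replicate 2 as well, at 12.7 FPKM against 10.7 for *Pdk1*. The sum itself was 15.7 and 24.3 FPKM in Unstimulated, 24.6 and 41.8 in Control, and 45.1 and 52.8 in SMF.

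The phosphatases *Pdp1* and *Pdp2*, which switch the complex back on, were low throughout. *Pdp1* stood at 1.97 and 0.552 FPKM in Unstimulated, 2.22 and 1.58 in Control, and 3.26 and 1.94 in SMF, and *Pdp2* ranged from 1.12 to 4.84 FPKM. Neither was called in any comparison. *Pdk1* exceeded *Pdp1* in every library, by ratios from 4.21 to 39.9.

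**Figure D4:**
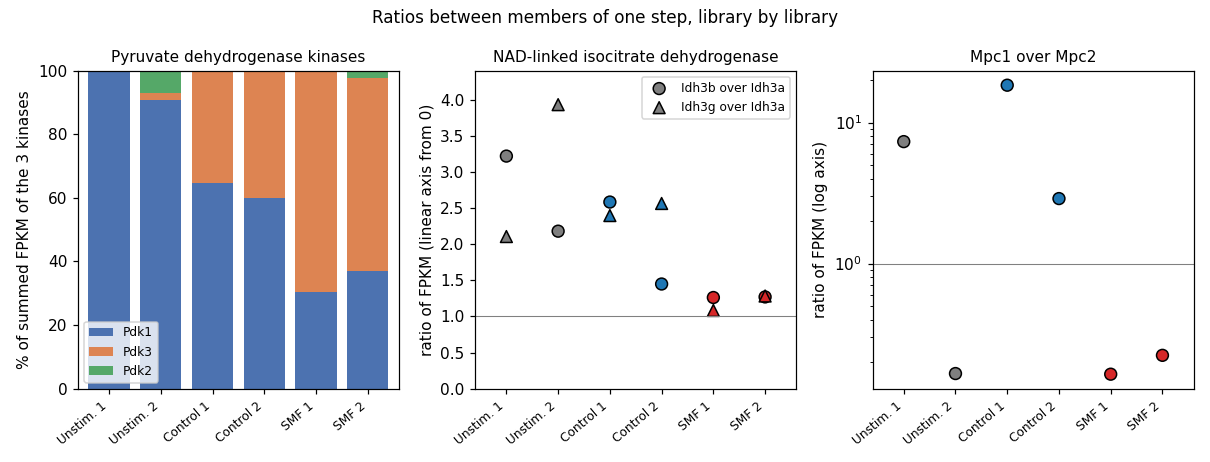
Left, percent of the summed FPKM of *Pdk1*, *Pdk2* and *Pdk3* held by each gene; middle, ratio of the gene FPKM of *Idh3b* (circles) and *Idh3g* (triangles) to *Idh3a*; right, ratio of *Mpc1* to *Mpc2* on a log axis; grey is Unstimulated, blue Control and red SMF, 1 value per library. *Pdk3* holds 69.6% and 60.8% of the kinase FPKM in the 2 SMF libraries and at most 40.1% elsewhere, and in SMF the *Idh3* ratios lie between 1.08 and 1.28 and the *Mpc1* to *Mpc2* ratio below 1.

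The first steps of the cycle were not called in Control against Unstimulated, and *Cs*, *Idh3a* and *Idh3b* rose in SMF against Control. *Cs*, citrate synthase, stood at 18.0 and 18.2 FPKM in Unstimulated, 21.9 and 30.5 in Control, and 55.7 and 69.5 in SMF. The 3 groups did not overlap. *Cs* was not called in Control against Unstimulated (0.49, 95% interval -0.29 to 1.28) and rose in SMF against Control by 1.24 (SE 0.32, limma adjusted p = 0.157). After either rescaling of the libraries this difference was no longer called.

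*Idh3a*, *Idh3b* and *Idh3g* encode the 3 subunits of NAD-linked isocitrate dehydrogenase, and no test of the difference between them was run. *Idh3a*, the catalytic subunit, stood at 6.22 and 7.15 FPKM in Unstimulated, 7.32 and 11.7 in Control, and 33.8 and 39.5 in SMF. *Idh3a* rose in SMF against Control by 1.87 (SE 0.39, limma adjusted p = 0.14), the smallest p of the members in that comparison, and was called in 15 of 16 alternatives. The exception was the sum over protein-coding transcripts alone. *Idh3b* stood at 20.0 and 15.6 FPKM in Unstimulated, 18.9 and 17.0 in Control, and 42.6 and 50.2 in SMF, with overlap of the first 2 groups. It rose in SMF against Control by 1.32 (SE 0.32, limma adjusted p = 0.146), not called after either rescaling. *Idh3g* stood at 13.1 and 28.1, 17.5 and 30.1, and 36.5 and 50.7 FPKM in the same order and was not called in any comparison. The ratio of *Idh3b* to *Idh3a* was 3.22 and 2.18 in Unstimulated, 2.58 and 1.45 in Control, and 1.26 and 1.27 in SMF, and that of *Idh3g* to *Idh3a* was 2.11 and 3.93, 2.40 and 2.56, and 1.08 and 1.28. By gene FPKM both ratios were lower in the SMF libraries than in the other 4. On protein-coding transcripts alone, which held 52.3% of the *Idh3a* FPKM in SMF replicate 2, the ratio of *Idh3b* to *Idh3a* was 17.0 and 2.21 in Unstimulated, 2.98 and 1.73 in Control, and 1.52 and 2.40 in SMF, so the groups overlapped. Protein-coding transcripts held between 6.21% and 25.4% of the FPKM of *Idh3g*, and the rest fell on short transcripts such as retained introns.

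The 2-oxoglutarate dehydrogenase complex is made of *Ogdh* (E1), *Dlst* (E2) and the shared *Dld*. *Ogdh* stood at 8.86 and 20.9 FPKM in Unstimulated, 23.5 and 19.6 in Control, and 36.5 and 39.5 in SMF. It rose in SMF against Unstimulated by 1.40 (SE 0.45, limma adjusted p = 0.0691), not called without Unstimulated replicate 1 (0.83), SMF replicate 1 (1.46) or SMF replicate 2 (1.35). *Dlst* stood at 16.1 and 28.9 FPKM in Unstimulated, 38.6 and 38.3 in Control, and 90.0 and 87.1 in SMF, with no overlap of the 3 groups. It rose in SMF against Control by 1.18 (SE 0.35, limma adjusted p = 0.17), called in 9 of 16 alternatives and in none that left out 1 of the 4 libraries (1.16 to 1.21). Most of the FPKM of *Dlst* was on transcripts that do not code for protein: coding transcripts held 6.57 and 13.2 FPKM in Unstimulated, 0 and 1.80 in Control, and 1.001 and 11.6 in SMF. Counted on coding transcripts alone, SMF against Unstimulated turned from 1.98 to -1.04 (limma adjusted p = 0.802), so the direction for *Dlst* rests on which transcripts are counted.

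Succinyl-CoA ligase joins the subunit *Suclg1* to either *Sucla2*, which makes ATP, or *Suclg2*, which makes GTP. *Suclg1* stood at 7.49 and 3.15 FPKM in Unstimulated, 13.1 and 15.9 in Control, and 30.0 and 34.1 in SMF, without overlap. It rose in Control against Unstimulated by 1.38 (SE 0.46, limma adjusted p = 0.118), with 0.73 and 2.03 within the header dates, and in SMF against Unstimulated by 2.47 (limma adjusted p = 0.0159). The first rise was not called without Unstimulated replicate 2 (0.86), Control replicate 1 (1.51) or Control replicate 2 (1.25). *Sucla2* stood at 16.3 and 9.42 FPKM in Unstimulated, 7.88 and 15.6 in Control, and 27.1 and 29.7 in SMF. Only the SMF libraries stood apart, and *Sucla2* rose in SMF against Control by 1.28 (SE 0.47, limma adjusted p = 0.208) and in SMF against Unstimulated by 1.13 (SE 0.47, limma adjusted p = 0.128). The first was not called after either rescaling or without SMF replicate 1 (1.34), SMF replicate 2 (1.21) or Control replicate 1 (0.83), nor the second without any 1 of its 4 libraries (0.76 to 1.495). *Suclg2* was listed at 0 in Unstimulated replicate 1 and stood at 4.37 in replicate 2, 9.35 and 3.41 in Control, and 6.69 and 8.97 in SMF, with overlap and no call. *Sucla2* exceeded *Suclg2* in every library other than Control replicate 1, where the ratio of *Suclg2* to *Sucla2* was 1.19.

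The last steps of the cycle are fumarase, *Fh1*, and malate dehydrogenase of the mitochondrion, *Mdh2*. *Fh1* ranged from 7.22 to 24.1 FPKM and was not called. In Unstimulated replicate 1, 15.1 of its 18.1 FPKM lay on a retained-intron transcript of 539 bases. On protein-coding transcripts alone *Fh1* stood at 1.26 and 4.03 FPKM in Unstimulated, 2.05 and 9.47 in Control, and 16.9 and 19.7 in SMF, and it rose in SMF against Unstimulated by 2.51 (limma adjusted p = 0.118). On covered bases it rose in SMF against Unstimulated by 1.77 (limma adjusted p = 0.0470) and in SMF against Control by 1.503 (limma adjusted p = 0.173). *Mdh2* (chromosome 5, 135778480 to 135790398, plus strand, GRCm38) stood at 19.5 and 22.5 FPKM in Unstimulated, 41.2 and 72.6 in Control, and 140.4 and 130.1 in SMF. It was the most abundant member in all 4 stimulated libraries except Control replicate 1, where *Dld* was higher, and its 3 groups did not overlap. *Mdh2* rose in Control against Unstimulated by 1.34 (SE 0.35, limma adjusted p = 0.0666), in SMF against Unstimulated by 2.63 (limma adjusted p = 0.00669), and in SMF against Control by 1.29 (limma adjusted p = 0.159). The first was not called without Unstimulated replicate 1 (1.24) or Control replicate 2 (0.94), nor the last after either rescaling or without SMF replicate 1 (1.23) or Control replicate 1 (0.89).

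By role, 6 of the 9 members that rose in SMF against Control were cycle enzymes. Of the 11 cycle enzymes all had a log2 difference above 0, with a median of 1.18, while 1 of 7 pyruvate entry genes rose and 1 fell, beside 12.5% of all genes called higher and 5.72% lower. After either rescaling of the libraries 1 of the 11 cycle enzymes and 1 of the 7 entry genes rose. Of all 14991 genes tested, 877 were called higher after the shift to one median and 931 with the equal protein-coding FPKM total. In Control against Unstimulated 2 of the 11 cycle enzymes rose, with a median of 0.49, and 3 of the 7 pyruvate entry genes, with a median of 0.88 (12.3% of all genes called higher). No test of the difference between roles was run.

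Of the aspartate and malate enzymes that move electrons between cytosol and mitochondrion, *Got2* rose by gene FPKM in both stimulated groups over Unstimulated and *Mdh1* in SMF. *Got2*, the aspartate aminotransferase of the mitochondrion, stood at 2.13 and 11.9 FPKM in Unstimulated, 26.1 and 27.2 in Control, and 43.0 and 42.7 in SMF, with no overlap. *Got2* rose in Control against Unstimulated by 2.12 (SE 0.66, limma adjusted p = 0.103), with 3.12 and 1.13 within the header dates, and in SMF against Unstimulated by 2.79 (limma adjusted p = 0.0306). The first rise was not called without Control replicate 1 (2.15) or Control replicate 2 (2.10). *Got1*, the cytosolic enzyme, was listed at 0 in Unstimulated replicate 1 and stood at 21.8 in replicate 2, 11.7 and 28.7 in Control, and 39.97 and 49.3 in SMF. By gene FPKM it was not called in any comparison. In Unstimulated replicate 2, 16.7 of its 21.8 FPKM lay on a retained-intron transcript of 661 bases. On protein-coding transcripts alone it stood at 0 and 5.17, 11.7 and 25.2, and 26.5 and 28.0 FPKM in the same order. Counted so, *Got1* rose in Control against Unstimulated by 2.88 (limma adjusted p = 0.241) and in SMF against Unstimulated by 3.51 (limma adjusted p = 0.0932). *Mdh1*, the cytosolic malate dehydrogenase, stood at 13.6 and 11.96 FPKM in Unstimulated, 20.1 and 24.7 in Control, and 36.8 and 36.9 in SMF. *Mdh1* rose in SMF against Unstimulated by 1.46 (SE 0.32, limma adjusted p = 0.0242), and its Control against Unstimulated difference of 0.76 missed the thresholds (limma adjusted p = 0.191). That difference was called on protein-coding transcripts alone (1.56) and on covered bases (1.24). The ratio of *Mdh1* to *Mdh2* was 0.700 and 0.531 in Unstimulated, 0.489 and 0.340 in Control, and 0.262 and 0.284 in SMF, with no overlap between groups. Protein-coding transcripts held 33.9% and 41.5% of the *Mdh1* FPKM in Unstimulated, and on them alone the order changed: the ratio was 0.237 and 0.226 in Unstimulated, 0.321 and 0.364 in Control, and 0.261 and 0.327 in SMF, with overlap of Control and SMF.

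Among the enzymes that exchange carbon with glutamate and pyruvate, *Glud1* rose in SMF against Control and *Me2* in Control against Unstimulated. *Glud1*, glutamate dehydrogenase, stood at 20.7 and 18.9 FPKM in Unstimulated, 21.6 and 31.1 in Control, and 61.7 and 58.9 in SMF. It rose in SMF against Control by 1.19 (SE 0.32, limma adjusted p = 0.159), not called after either rescaling or without Control replicate 1 (0.93). At least 92.4% of its FPKM was on protein-coding transcripts in every library. *Me2*, the NAD-linked malic enzyme of the mitochondrion, has 1 annotated transcript and stood at 6.92 and 11.7 FPKM in Unstimulated, 16.3 and 24.6 in Control, and 30.6 and 39.7 in SMF, with no overlap. *Me2* rose in Control against Unstimulated by 1.07 (SE 0.42, limma adjusted p = 0.167), called in 9 of 16 alternatives and not without Unstimulated replicate 1 (0.72) or Control replicate 2 (0.78). In SMF against Unstimulated it rose by 1.84 (limma adjusted p = 0.0273).

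*Slc25a1*, the carrier that exports citrate from the mitochondrion, stood at 7.98 and 0.546 FPKM in Unstimulated, 7.25 and 11.1 in Control, and 26.9 and 10.4 in SMF. The replicates lay far apart, and its rise in SMF against Unstimulated (2.26, SE 0.91, limma adjusted p = 0.122) held in 6 of 16 alternatives and not without Unstimulated replicate 2 (0.99), SMF replicate 1 (1.61) or SMF replicate 2 (2.90). A retained-intron transcript held 100% of the *Slc25a1* FPKM in Unstimulated replicate 1 and 64.9% in SMF replicate 1. On protein-coding transcripts alone *Slc25a1* stood at 0 and 0.546, 7.25 and 11.1, and 9.44 and 6.68 FPKM in the same order. Counted so, it rose in Control against Unstimulated by 3.01 (limma adjusted p = 0.0754), a difference not called by gene FPKM (1.42). In SMF against Unstimulated it rose by 2.85 (limma adjusted p = 0.0454). *Aco1*, the cytosolic aconitase that also acts as an iron sensor, stood at 1.73 and 1.95 FPKM in Unstimulated, 0.933 and 9.28 in Control, and 13.6 and 11.97 in SMF. It rose in SMF against Unstimulated by 2.28 (SE 0.82, limma adjusted p = 0.0908), not called without any 1 of the 4 libraries (2.19 to 2.37). The SMF libraries were above the other 4, and the Control libraries lay on either side of Unstimulated.

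The NADP-linked isocitrate dehydrogenases were not called in any comparison. *Idh1*, the cytosolic enzyme, stood at 3.84 and 1.12 FPKM in Unstimulated and at 3.72 in Control replicate 1, was listed at 0 in Control replicate 2 and SMF replicate 1, and stood at 1.12 in SMF replicate 2. *Idh2*, the mitochondrial enzyme, stood at 16.0 and 16.3 FPKM in Unstimulated, 15.2 and 13.5 in Control, and 18.4 and 11.1 in SMF. The difference of *Idh2* was -0.16 (95% interval -1.10 to 0.78) in Control against Unstimulated. In SMF against Control it was 0.00 (95% interval -0.94 to 0.94), so there a change of up to about 0.94 either way was within the error. Protein-coding transcripts held at most 41.5% of the FPKM of *Idh2* in any library. *Idh1* was below *Idh2* in all 6 libraries.

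Related genes of the same pathway that are not among the 33 gave a mixed pattern. Of 33 such genes 26 were tested: 9 rose and 3 fell in Control against Unstimulated, 13 rose and 3 fell in SMF against Unstimulated, and 6 rose and 2 fell in SMF against Control, 0 of the last with a limma adjusted p under 0.05 and 8 with an unadjusted p under 0.05. Of all genes 12.3%, 22.4% and 12.5% were called higher in these comparisons and 12.6%, 14.8% and 5.72% lower. Among the succinate dehydrogenase genes, *Sdhd* rose in both stimulated groups over Unstimulated (1.53 and 2.47) and *Sdhb* and *Sdhc* in SMF against Unstimulated (2.73 and 1.35), while *Sdha* was not called (0.74, limma adjusted p = 0.087). The fourth kinase gene, *Pdk4*, was listed at 0 in all 6 libraries.

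Of the 5 genes tested at the lactate end of pyruvate, 4 rose in Control against Unstimulated (12.3% of all genes) and *Ldhb* did not, at 4.58 and 0 FPKM in Unstimulated, 0 and 1.45 in Control, and 22.5 and 1.9997 in SMF. *Ldha*, which turns pyruvate into lactate, stood at 52.3 and 46.3 FPKM in Unstimulated, 275 and 425 in Control, and 708 and 872 in SMF, and *Pkm*, which makes pyruvate, at 52.7 and 69.4, 435 and 637, and 712 and 761. Both rose in Control against Unstimulated, by 2.77 and 3.10 (limma adjusted p = 0.00926 and 0.00707), more than all members but *Pdk3*. The lactate carriers *Slc16a1* and *Slc16a3* rose in that comparison by 1.86 and 2.20, and *Ldha* rose in SMF against Control by 1.20 (limma adjusted p = 0.144). *Acly*, which cleaves exported citrate to acetyl-CoA, rose in Control against Unstimulated by 1.72.

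Carriers and amino acid genes were split. *Bcat1*, a branched-chain aminotransferase, was listed at 0 in both Unstimulated libraries and stood at 14.9 and 20.1 FPKM in Control and 52.7 and 45.5 in SMF, and rose in SMF against Control by 1.45 (limma adjusted p = 0.166). The aspartate-glutamate carrier *Slc25a13* was listed at 0 in both Unstimulated libraries, stood at 2.40 and 1.93 FPKM in Control and 7.13 and 6.96 in SMF, and rose in SMF against Control by 1.35 (limma adjusted p = 0.226), as did *Slc25a12* by 1.74 (limma adjusted p = 0.236).

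Falls were seen in 3 of the related genes. *Slc25a11*, the 2-oxoglutarate carrier, stood at 244 and 229 FPKM in Unstimulated, 96.3 and 78.0 in Control, and 50.1 and 32.2 in SMF, and *Lipt1*, a lipoyltransferase that attaches the cofactor of E2, at 69.2 and 57.9, 20.6 and 26.4, and 8.59 and 11.6. *Slc25a11* fell by 1.44 in Control against Unstimulated and by a further 1.09 in SMF against Control, and *Lipt1* fell by 1.40 and 1.15. *Acss1*, an acetyl-CoA synthetase, fell by 2.19 in Control against Unstimulated. *Lias*, which makes lipoic acid, stood at 16.3 and 6.11, 4.15 and 6.60, and 18.6 and 30.2 FPKM in the 3 groups and rose in SMF against Control by 1.98 (limma adjusted p = 0.168). Exons on the opposite strand face 12.8% of the exon bases of *Lipt1* and 8.92% of those of *Slc25a11*.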

How the data were processed

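RNA-Seq of mouse CD8+ T cells gave 6 libraries, 2 in each of 3 groups taken from the sample labels; nothing states that replicates came from separate mice or cultures, so p-values measure only the spread between libraries. A stranded total RNA kit was used. The authors deposited 1 StringTie 1.3.5 file per library (GRCm38, GENCODE M19; Trimmomatic 0.36 and HISAT2 are named in the submitters' processing notes), with FPKM and TPM, which StringTie scaled to library size and transcript length, and coverage (reads per base, averaged over the transcript, not normalized) for 137767 transcripts. The file headers show stranded counting of annotated transcripts only. Another deposited table was left out, since none of its 3 FPKM columns carries the name of a sample. The files hold no read counts, so no counting intervals are given, and 0 is reported only as a listing at 0; deeper libraries carry less error.

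FPKM was summed here over the transcripts of a gene. The 14991 of 54446 genes whose mean reached 1 FPKM were fitted as log2(FPKM + 1) with limma 3.58.1 in R 4.3.3, with 3 group means and a variance trend (3 residual degrees of freedom). Calls used the thresholds of the study, a 2-fold difference or more with an unadjusted p of 0.05 or less, with Benjamini-Hochberg adjusted p beside them; folds on this scale understate the change of low genes. With 2 libraries against 2, an exact permutation test of a single gene cannot go below p = 0.3333. The procedure was tested on simulated data. Gene and transcript types came from GENCODE M21 (54409 gene identifiers matched, 37 not; 137654 of 137767 transcripts), and promoter windows from RefSeq on GRCm38.p6, in which 30 of 33 members matched. The members and all lists were chosen with earlier results of these data known. Every member could be named, with values in each library for those called in any comparison, held in a ratio, or listed at 0, and the related genes named were those called, apart from some that are not reported here, with *Sdha* and *Pdk4* added after values were seen. Promoters were those of the 2 members with the smallest p among the rises of Control against Unstimulated, with *Mpc1* added after its values were seen. Alternatives were other pseudocounts, filters, scalings, units, variance models, a replicate block, and leaving out each library in turn; the sums over protein-coding transcripts alone and of covered bases scaled to library size were added after the data were seen.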

Additional observations from a re-analysis of the deposited data

How the results depend on the processing

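In Control against Unstimulated the count of members that rose moved from 8 to 4 with these 2 groups alone in the fit. At an adjusted p under 0.05 it moved to 2. With 1 library left out the median of the members was 0.40 to 0.79, from 0.61. In SMF against Unstimulated the count moved from 18 to 11 with an equal protein-coding FPKM total. The median of the members moved from 1.56 to 1.23 with a pseudocount of 5 and 1.84 with a mean of at least 5 FPKM. It was 1.13 with the equal total and 1.91 on protein-coding transcripts. In SMF against Control the count of rises moved from 9 to 2 with libraries shifted to one median and 2 with the equal total. At an adjusted p under 0.05 the rises moved to 0 and the falls from 1 to 0. The median moved from 0.87 to 1.09 with a mean of at least 5 FPKM, 0.53 with one median and 0.55 with the equal total. With 1 library left out it was 0.79 to 1.11. *Dlst* in SMF against Unstimulated reversed to -1.04 on protein-coding transcripts. Of all genes in Control against Unstimulated, calls higher moved from 1838 to 1511 with 2 groups in the fit and 671 at the adjusted threshold. In SMF against Unstimulated they moved from 3351 to 2347 with the equal total. In SMF against Control they moved from 1868 to 877 with one median, 931 with the equal total and 3 at the adjusted threshold. The stricter threshold calls fewer genes by construction. For the rest the cause was not tested. Among members not called, 30 of 364 values changed sign in Control against Unstimulated, 8 of 204 in SMF against Unstimulated and 11 of 332 in SMF against Control.

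Same-numbered Unstimulated and Control libraries share a header date, and their within-date differences stand with the results; the deviations of same-numbered libraries, which did not reach the level set for pairing, correlated at 0.096 between Unstimulated and Control, 0.030 between Unstimulated and SMF and 0.021 between SMF and Control. With the replicate block, 8, 20 and 10 members rose in Control against Unstimulated, SMF against Unstimulated and SMF against Control, and 0, 0 and 1 fell. Of all 14991 genes tested, 1817, 3359 and 1837 were then called higher and 1851, 2218 and 873 lower. With 3 residual degrees of freedom and no read counts in the files, small differences among members under 5 FPKM could not be separated from replicate error.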
